A study of Mus musculus with 13 samples.

Results

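The Hox genes of the mouse were followed in 13 whole embryos of embryonic day 9.5. They were taken as every row of the deposited expression table whose symbol is Hoxa, Hoxb, Hoxc or Hoxd followed by a number, with no filter on level, which gave 39 of 23217 genes. Of these, 11 belong to the Hoxa cluster, 10 to Hoxb, 9 to Hoxc and 9 to Hoxd. On the mm9 build the clusters lie on chromosome 6 (Hoxa), chromosome 11 (96055675 to 96229567, Hoxb), chromosome 15 (102751562 to 102867283, Hoxc) and chromosome 2 (74506367 to 74603199, Hoxd).

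Hox genes encode homeodomain transcription factors that give the cells along the head-to-tail axis their position. Genes of the same number in different clusters descend from one ancestral gene and are called paralogs. Low numbers sit at one end of each cluster and are switched on early and far forward, up to the hindbrain, whereas high numbers sit at the other end and are switched on later, in the trunk, tail and limb buds. Polycomb proteins keep the clusters silent in the head, and retinoic acid, Wnt and Fgf signals together with Cdx proteins open them in the tail bud.

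The study asks what part Tet1, which converts methylated cytosine to its hydroxymethylated form, has in removing the marks of genomic imprinting. The genotype label sorts the embryos into 3 xHet and 10 xHomo, all on a C57BL/6J background, and spells out neither name. The fathers are known to have carried a Tet1 mutation on 1 or both copies, although the labels do not state it; they also name no litter, batch or sex, so p-values measure only the spread between these embryos. Polyadenylated RNA was measured as FPKM, in which fragment numbers are divided by transcript length and library size; this allows levels of different genes to be set side by side. The read depth is unknown. In bulk RNA of a whole embryo, fewer cells that express a gene and less RNA per cell cannot be told apart.

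Before any comparison, 2 libraries stood apart. Departures of 1 log2 unit or more from the mean of the xHet embryos were counted over the 12755 genes tested. For each xHet embryo the mean of the other 2 was used. Such departures were seen for 10.2% of genes in xHomo embryo 3 and 4.56% in xHomo embryo 9, against 1.09% to 2.30% in the other 11 embryos. Several values below are also given without one or both of them. Xist, which coats the silenced X chromosome of female cells, was below 0.11 FPKM in all 3 xHet embryos and in 5 xHomo embryos, and between 30.5 and 159 FPKM in xHomo embryos 2, 3, 7, 9 and 10, so the groups were not balanced for sex. Tet1 itself was listed at 1.93 to 2.61 FPKM in xHet and 1.11 to 2.87 FPKM in xHomo embryos, which overlapped.

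The level of a Hox gene tended to fall with its paralog number, but not steadily. The median of the mean FPKM was 18.3 for paralog 2, 8.50 for 5, 11.2 for 8, 8.37 for 10, 2.89 for 11 and 0.242 for 13. Hoxb1 and Hoxd1, of paralog 1, stood at 11.5 and 3.15 FPKM. Over the 39 genes Spearman's rho between number and mean FPKM was -0.62, a description across genes that share libraries and are not replicates. The highest means over the 13 embryos were those of Hoxb3 (22.4 FPKM), Hoxb9 (22.3), Hoxa5 (21.3), Hoxb2 (20.7) and Hoxd4 (20.0). Of these, Hoxb2 and Hoxb3 pattern the hindbrain segments, and Hoxa5 and Hoxd4 act in the neck region. Hoxb9 stood well above its paralogs: Hoxa9, Hoxc9 and Hoxd9 stood at 7.08, 5.84 and 9.20 FPKM. Hoxb9 is the last gene of the main Hoxb row, from which Hoxb13 lies far apart. In Hoxc the highest was Hoxc4, at 15.2 FPKM, followed by Hoxc6 at 13.5 FPKM.

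The genes of the far posterior end were low or near the limit of the table. Hoxa13, a gene of the limb tip and genital bud, had a mean of 0.319 FPKM, Hoxc12 0.259 FPKM and Hoxc13, a hair and nail gene in later life, 0.165 FPKM. Hoxb13 was listed at 0 in 12 of the 13 embryos and at 0.05 FPKM in xHomo embryo 10. These 4 genes fell below the mean of 1 FPKM required for a test, which left 35 of 39. Hoxd12, with a mean of 0.777 FPKM in xHet embryos, passed only through its higher values in xHomo embryos and is therefore no support for a difference. The neighbours Hoxd11 and Hoxd13, which act in the limb bud, stood higher, at 5.30 and 3.12 FPKM. The plot of all levels by cluster shows the fall at the posterior end in each cluster.

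**Figure D1:**
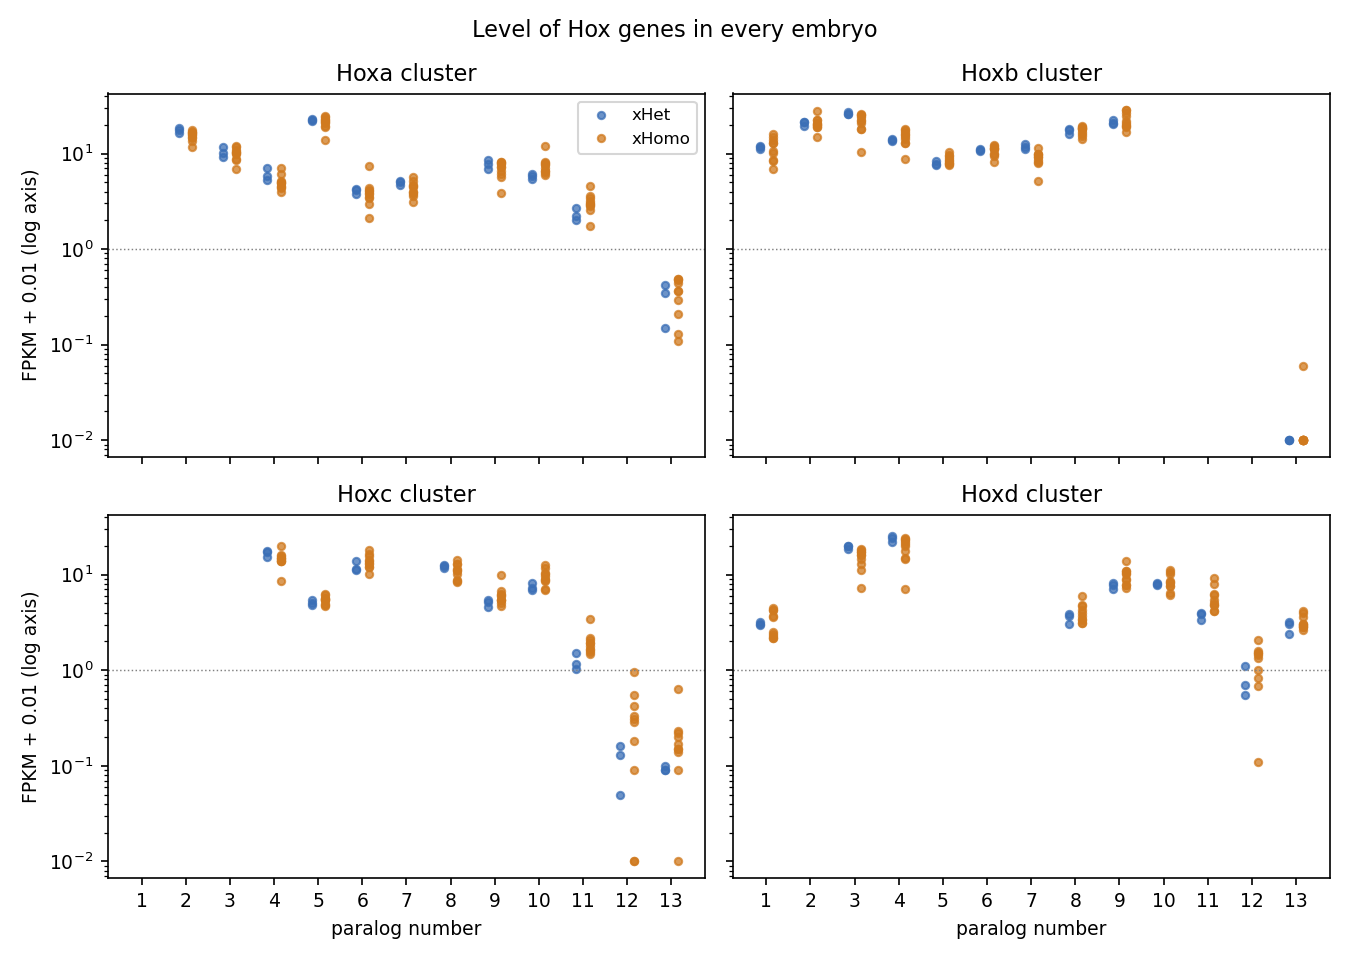
FPKM of Hox genes in every embryo (1 gene is not drawn) against paralog number, 1 panel per cluster, with 0.01 added so that an entry of 0 can be drawn on the log axis; blue points are the 3 xHet and orange points the 10 xHomo embryos, and the dotted line marks 1 FPKM. Beyond paralog 11 Hoxd13 is the only gene above 1 FPKM in every embryo, and within most genes the xHomo points spread more widely than the xHet points.

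Several genes cannot be fully separated in this table. The deposited locus of Hoxa3, Hoxa4, Hoxa5 and Hoxa6 is 1 joined interval (chromosome 6, 52119061 to 52163596), as is that of Hoxd3 and Hoxd4 (chromosome 2, 74548101 to 74586328, mm9), which also holds Mir10b. Hoxa11 shares its locus with the antisense transcript Hoxa11as and Hoxc5 with Mir615. The library kit marks strand, but whether counting used it is not stated. Values of these genes carry that limit.

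The comparison between groups asked whether any Hox gene differed between xHomo and xHet embryos. None of the 35 tested Hox genes passed at an adjusted p under 0.05 (limma on log2(FPKM+1), Benjamini-Hochberg over all 12755 genes), where 0.0235% of all genes (3 genes) passed as higher and 0% as lower. The smallest adjusted p was 0.498, for Hoxd11. At an unadjusted p under 0.05, 3 Hox genes stood higher (Hoxd11, Hoxc11 and Hoxa10), against 7.63% of all genes, and 1 stood lower (Hoxb7), against 1.72%. These shares are close to the background. With limma array weights, which count libraries by their spread, 7 Hox genes passed as higher and 3 as lower, where 2779 of all 12755 genes passed.

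Hoxd11, whose product shapes the forearm and the lumbosacral spine, lies at chromosome 2, 74520450 to 74522195 (mm9). It was at 3.95, 3.32 and 3.89 FPKM in the 3 xHet embryos and at 4.13 (lowest), 5.17 (median) and 9.12 FPKM (highest) in the xHomo embryos. The groups did not overlap, and xHomo embryos 9 and 8 were the highest. Its mean was 3.72 ± 0.348 FPKM (SD, n = 3) against 5.77 ± 1.64 FPKM (SD, n = 10). The difference was 0.49 on the log2 scale (SE 0.18, limma adjusted p = 0.498). Without xHomo embryo 9 the log2 change was 0.42. Among the Hox genes it was the only one higher in all 10 xHomo embryos than in any xHet embryo, against 1.66% of all genes tested.

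Hoxc11 and Hoxa10 followed by p. Hoxc11, a gene of the sacral region and hind limb (chromosome 15, 102784957 to 102787132), was at 1.49, 1.01 and 1.14 FPKM in xHet and at 1.47 (lowest), 1.83 (median) and 3.39 FPKM (highest) in xHomo embryos. In 9 of 10 xHomo embryos it exceeded every xHet embryo, and in 1 it lay just under the highest of them. The log2 change was 0.40 (SE 0.15, limma adjusted p = 0.502), and 0.33 without xHomo embryo 9, which holds the highest value. Hoxa10, which specifies the lumbar spine and the uterus (chromosome 6, 52181196 to 52190853), was at 6.06, 5.78 and 5.34 FPKM in xHet and at 5.88 (lowest), 7.32 (median) and 12.0 FPKM (highest) in xHomo embryos, again with 9 of 10 above. Its log2 change was 0.33 (SE 0.15, limma adjusted p = 0.528), and 0.26 without xHomo embryo 9.

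Hoxb7, a gene of the thoracic region (chromosome 11, 96147960 to 96151477), had the smallest p on the lower side. It was at 12.5, 11.0 and 11.7 FPKM in xHet and at 5.11 (lowest), 9.18 (median) and 11.3 FPKM (highest) in xHomo embryos, of which 9 of 10 lay below every xHet embryo. The log2 change was -0.39 (SE 0.16, limma adjusted p = 0.513), and -0.31 without xHomo embryo 3, which holds the lowest value. Its neighbour Hoxb8, also a trunk gene, had a log2 change of 0.01 (SE 0.10).

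For Hoxb3 and Hoxd3, both paralog 3 genes of the hindbrain and neck, all 10 xHomo embryos lay below every xHet embryo; 0.58% of all genes tested showed this. Hoxb3 (chromosome 11, 96184440 to 96209244) was at 25.7, 26.2 and 27.0 FPKM in xHet and at 10.4 (lowest), 22.0 (median) and 25.6 FPKM (highest) in xHomo embryos. The gap between the groups was narrow, since 3 xHomo embryos reached 25.3 to 25.6 FPKM. Its log2 change was -0.33 (SE 0.20, limma adjusted p = 0.605) and -0.23 without xHomo embryo 3. Hoxd3 was at 20.1, 18.7 and 20.2 FPKM in xHet and at 7.25 (lowest), 16.1 (median) and 18.5 FPKM (highest) in xHomo embryos, a log2 difference of -0.41 (SE 0.21, limma adjusted p = 0.556) and of -0.31 without xHomo embryo 3. The third member, Hoxa3, overlapped widely between groups, at 9.28 to 11.7 FPKM in xHet and 6.84 to 11.9 FPKM in xHomo embryos. Hoxd4, which shares the locus of Hoxd3, was at 24.4, 22.0 and 25.6 FPKM in xHet and 7.12 to 24.0 FPKM in xHomo embryos, a log2 difference of -0.40 (SE 0.27, limma adjusted p = 0.641) and of -0.27 without xHomo embryo 3.

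Ordered by cluster, the Hoxa genes were mostly on the lower side, with 3 of 10 higher and 7 lower and a median log2 change of -0.08. In Hoxb 4 of 9 were higher and 5 lower (median -0.02), in Hoxc 5 of 7 were higher and 2 lower (median 0.17), and in Hoxd 7 of 9 were higher and 2 lower (median 0.12). Over all 35 Hox genes 19 were higher and 16 lower, with a median of 0.01, beside 59.7% of all tested genes higher and a median of 0.05. Without xHomo embryo 3 the median was -0.03 in Hoxa and turned to 0.03 in Hoxb, with 6 of 9 higher. The count over all 35 moved with the scaling: 14 were higher and 21 lower after each library was rescaled to a common sum, and 9 were higher and 26 lower when genes of small RNA families were left out of that sum. Without a filter the 39 Hox genes divided into 23 higher and 16 lower, and the added genes, all near 0 FPKM, were all on the higher side. Counts of direction describe the list and carry no test.

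Ordered by paralog number the directions divided. Among paralogs 1 to 3, 2 of 8 genes were higher and 6 lower (median log2 change -0.06), and among paralogs 4 to 8, 6 of 15 were higher and 9 lower (median -0.07). Without xHomo embryo 3 these medians were 0.0009 and -0.0097, with 11 of the 23 genes higher in place of 8. After rescaling without small RNA genes 1 of the 23 was higher.

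Among paralogs 9 to 13, leaving out Hoxd12 because of how it passed the filter, 10 of 11 genes were higher, with Hoxa9 as the exception at -0.17, and the median was 0.28. With no filter on level 15 of 16 were higher, Hoxd12 included, with a median of 0.21. The other genes this adds lie near 0, and Hoxb13 counts as higher only through 0.05 FPKM in xHomo embryo 10. The larger count is therefore no further support. After each library was rescaled to a common sum, 8 of the 11 were higher (Hoxb9 and Hoxd10 joined Hoxa9 on the lower side), and without small RNA genes in that sum 7 of 11 were, as Hoxd13 joined them. That last scaling shifted the median of all genes from 0.05 to -0.12. Relative to the median of all genes, 10 of the 11 stood above it in the unscaled values and under each of the 4 scalings. The difference between the median of the 11 genes and that of all genes was 0.24 as deposited and 0.25 under the last scaling. Except for quantile normalization, these scalings multiply each library by a single factor, which moves all genes nearly alike. Under those, the count and the difference were nearly fixed in advance and are no further support. The difference was 0.14 with Xist as a covariate and 0.13 among embryos with Xist under 10 FPKM. In each of these, 8 of 11 stood above the median of all genes. At a pseudocount of 5 the difference was 0.11. Without xHomo embryos 3 and 9 it was 0.18, again with 8 of 11 above.

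**Figure D2:**
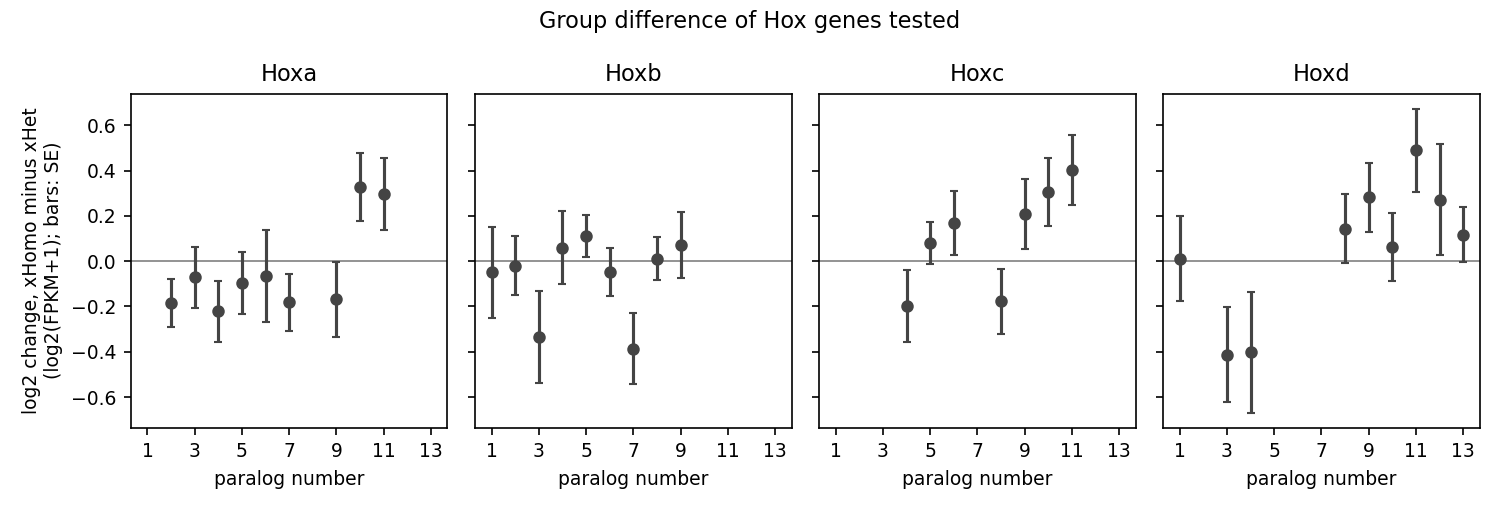
Log2 change (xHomo minus xHet, on log2(FPKM+1)) of the tested Hox genes (1 is not drawn) against paralog number, 1 panel per cluster; points are limma estimates and bars their standard errors. In Hoxa, Hoxc and Hoxd the points at numbers 10 and 11 lie above 0 and most points at 2 to 4 lie below it, and no gene passed the adjusted threshold; Hoxd10 turned negative when libraries were rescaled to a common sum.

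Across the 35 genes the paralog number and the log2 change had a Spearman's rho of 0.58. By cluster rho was 0.38 in Hoxa (10 genes), 0.30 in Hoxb (9), 0.89 in Hoxc (7) and 0.63 in Hoxd (9). Leaving out any single embryo gave 0.52 to 0.61 over all clusters. All these points share the same 13 libraries, so no p is given. In Hoxc the values did not climb steadily, at -0.20 for Hoxc4, 0.08 for Hoxc5, 0.17 for Hoxc6 and -0.18 for Hoxc8. From Hoxc8 on they rose through Hoxc9 (0.21) and Hoxc10 (0.30) to Hoxc11 (0.40). Hoxc10, a gene of the lumbar spinal cord, was at 8.17, 6.83 and 7.27 FPKM in xHet and at 6.91 (lowest), 9.39 (median) and 12.7 FPKM (highest) in xHomo embryos, with 8 of 10 above every xHet embryo (limma adjusted p = 0.546). Hoxa11, a limb and kidney gene that shares its locus with an antisense transcript, was at 2.65, 2.20 and 1.98 FPKM in xHet and 1.75 to 4.53 FPKM in xHomo embryos (log2 change 0.30, limma adjusted p = 0.575).

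A share within the Hox genes does not depend on the scaling of a library. Paralogs 9 to 13 held 21.1%, 20.2% and 20.3% of the summed Hox FPKM in the 3 xHet embryos. In xHomo embryos 1 to 10 they held 21.9%, 21.8%, 27.8%, 22.4%, 25.8%, 24.3%, 24.8%, 25.6%, 27.3% and 25.6%. All 10 xHomo embryos lay above all 3 xHet embryos, the nearest by less than 1 percentage point. The summed FPKM of paralogs 9 to 13 did overlap, at 71.4 to 78.2 in xHet and 67.2 to 120 in xHomo embryos. xHomo embryo 3, with the highest share, had the lowest of these sums, and also the lowest sums of paralogs 1 to 3 and 4 to 8. The mean shares were 20.5 ± 0.510% (SD, n = 3) and 24.7 ± 2.13% (SD, n = 10), a difference of 4.17 percentage points. Without xHomo embryos 3 and 9 the difference was 3.47 points, and among embryos with Xist under 10 FPKM it was 3.44 points. Paralogs 1 to 3 held 31.6 ± 0.697% and 29.1 ± 1.54%, and paralogs 4 to 8 held 47.9 ± 0.647% and 46.2 ± 1.47%, and in both of these the groups overlapped. No p is given for a share summed over the members.

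**Figure D3:**
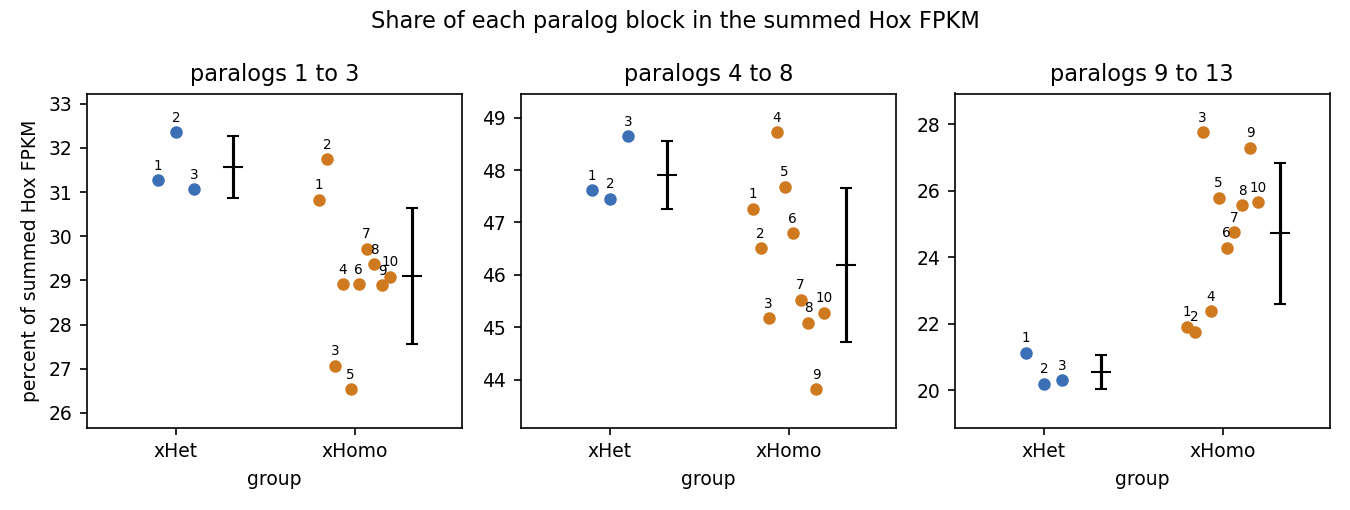
Percent of the summed FPKM of the 39 Hox genes that came from paralogs 1 to 3, 4 to 8 and 9 to 13, with 1 point per embryo marked by its replicate number and bars for the mean ± SD of each group (3 xHet, 10 xHomo); the vertical axes do not start at 0. In the right panel every xHomo embryo, from 21.8% to 27.8%, lies above the xHet embryos, at 20.2% to 21.1%.

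The total over the 39 genes did not separate the groups. Summed Hox FPKM was 370, 354 and 358 in xHet embryos and ran from 242 in xHomo embryo 3 to 440 in xHomo embryo 9, with a median of 349. The ratio of the group means was 0.976. The 3 xHet sums lay inside the range of the 10 xHomo sums.

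The extremes lay mostly in the same 2 embryos. xHomo embryo 3 held the lowest xHomo value of 23 of the 35 tested Hox genes and xHomo embryo 9 the highest of 18. In embryo 3, 4 Hox genes (Hoxb3, Hoxb7, Hoxd3 and Hoxd4) departed by 1 log2 unit or more, beside the 10.2% of all genes given above; in embryo 9 Hoxd11 alone was, and in the other embryos 0 were. The median SD of log2(FPKM+1) over the tested Hox genes was 0.26 among xHomo and 0.09 among xHet embryos, beside 0.23 and 0.10 over all genes tested. A lowest or highest xHomo value far from the nearest other one, by Dixon's ratio of gap to range on the log2 scale, was found for 10 of the 35 Hox genes, beside 22.8% of all genes tested. In xHomo embryo 3 the median difference from the xHet mean was -0.54 log2 units for paralogs 1 to 3, -0.49 for paralogs 4 to 8 and 0.06 for paralogs 9 to 13; Hoxa9, Hoxa10, Hoxb9, Hoxd9 and Hoxd11 also had their lowest xHomo value there. In xHomo embryo 9 the medians were 0.18, 0.11 and 0.77 in that order. The median over all genes was -0.27 in embryo 3 and 0.08 in embryo 9.

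**Figure D4:**
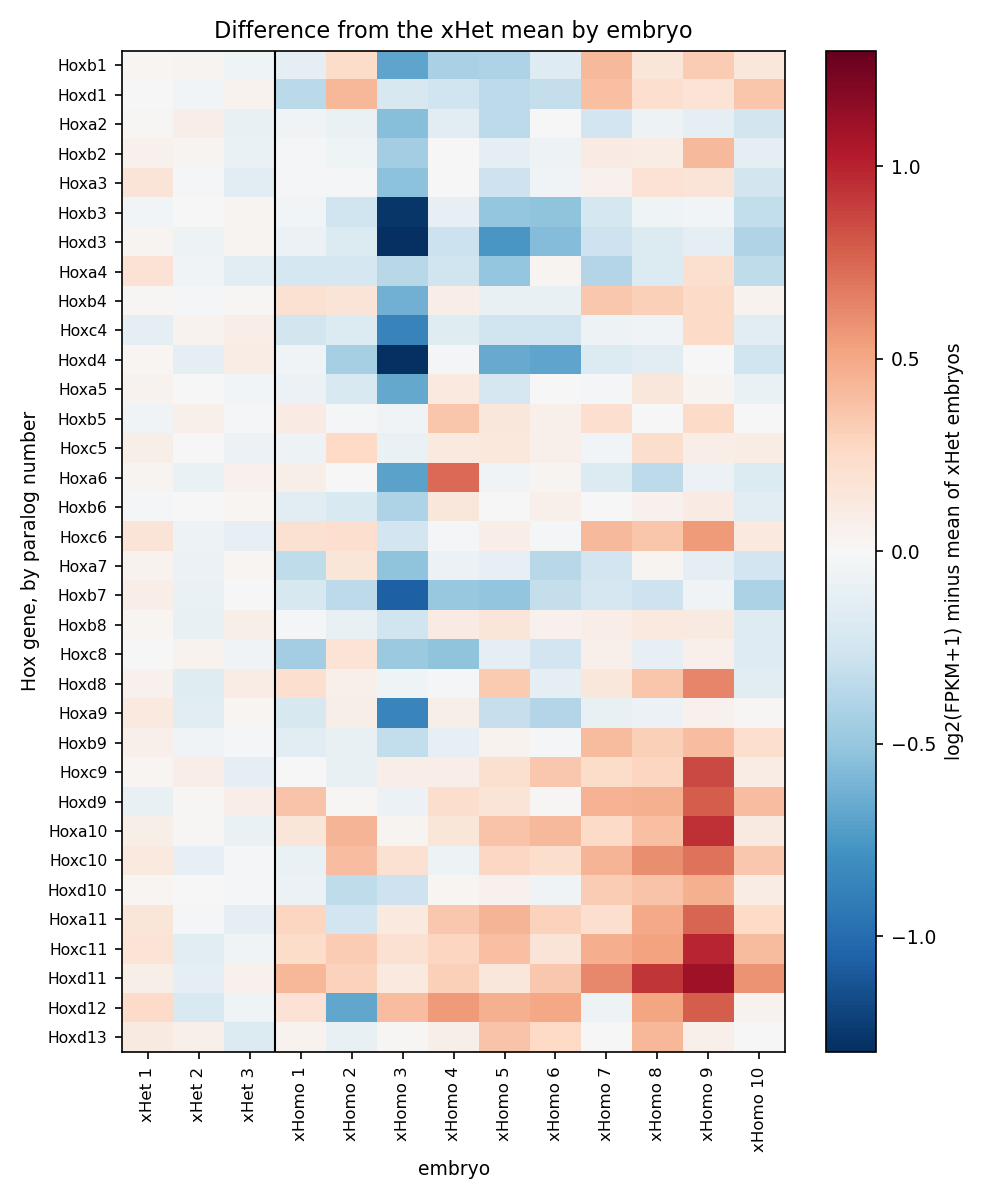
Difference of log2(FPKM+1) from the mean of the 3 xHet embryos for the tested Hox genes (rows, by paralog number; 1 is not drawn) in each of the 13 embryos (columns); red is higher, blue lower, and colours saturate at the ends of the scale. xHomo embryo 3 is blue over most of paralogs 1 to 8, and xHomo embryo 9 is the deepest red over most of paralogs 9 to 12.

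Hoxb1 and Hoxd1, which are among the first genes of their clusters to be switched on, split the xHomo embryos in a way that the group means hide. Hoxb1, which specifies the fourth hindbrain segment, was at 11.8, 11.9 and 11.0 FPKM in xHet embryos. It was at 12.9 to 15.8 FPKM in xHomo embryos 2, 7, 8, 9 and 10 and at 6.80 to 10.6 FPKM in the other 5. The xHet values lay in the gap between them. Hoxd1, a gene with a part in sensory neurons, was at 3.05, 2.94 and 3.17 FPKM in xHet, at 3.59 to 4.47 FPKM in the same 5 xHomo embryos and at 2.18 to 2.52 FPKM in the others. The group differences were small for Hoxb1 (log2 change -0.05) and Hoxd1 (0.01) and both changed sign under other settings.

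The same 5 xHomo embryos also held the 5 highest values of Hoxc10 and of 7 genes of the lists described next: Cdx1, Cdx2, Evx1, Gbx2, Nr6a1, Snx10 and Tbx6. Cdx2, which activates trunk Hox genes in the tail bud, was at 4.05, 3.79 and 4.15 FPKM in xHet, at 5.09 to 5.98 FPKM in those 5 embryos and at 2.46 to 3.11 FPKM in the other 5. Of all genes tested, 1.47% (187 genes) had the same 5 embryos on top. This set of embryos was chosen after the values of Hoxb1 were seen, so the count is a description. Of the 5, embryos 2, 7, 9 and 10 had Xist above 10 FPKM and embryo 8 did not; the part of Xist-linked differences in this pattern was not tested.

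**Figure D5:**
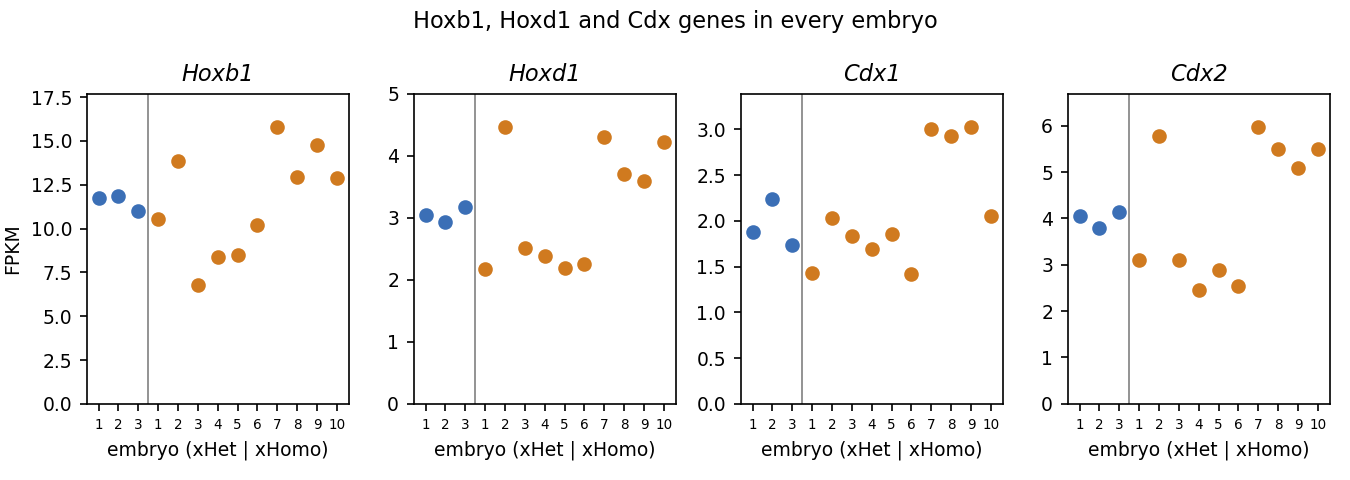
FPKM of Hoxb1, Hoxd1, Cdx1 and Cdx2 in every embryo, 1 panel per gene, blue for xHet 1 to 3 and orange for xHomo 1 to 10; axes start at 0. For Hoxb1, Hoxd1 and Cdx2 the xHomo embryos 2, 7, 8, 9 and 10 lie above the xHet embryos and the other 5 xHomo embryos below them.

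Genes that act with or on the Hox genes gave no call in any list at an adjusted p under 0.05. Counts of direction in this and the following lists are of the values as deposited. Over all tested genes 59.7% were higher in these values, with a median log2 change of 0.05. After rescaling without small RNA genes 24.9% of all genes were higher, with a median of -0.12, so such counts depend on the scaling. Of 9 cofactors, homeodomain partners that bind DNA with Hox proteins, 7 were higher and 2 lower (median log2 change 0.10). Meis2 was at 28.7 to 30.2 FPKM in xHet and 27.2 to 38.0 FPKM in xHomo embryos (log2 change 0.16, limma adjusted p = 0.590). Of 4 tested ParaHox and Evx genes 2 were higher and 2 lower. Of 19 tested upstream signals and regulators 13 were higher and 6 lower (median 0.12), with Rarg, a retinoic acid receptor, at 10.4 to 11.3 FPKM in xHet and 10.7 to 17.1 FPKM in xHomo embryos (limma adjusted p = 0.518). Of 20 Polycomb genes 16 were higher and 4 lower (median 0.07), and of 14 Trithorax genes, which counter Polycomb, 11 were higher and 3 lower (median 0.06). Rnf2, the ubiquitin ligase of the Polycomb complex that marks histone H2A, was at 26.4 to 27.8 FPKM in xHet and 27.6 to 38.8 FPKM in xHomo embryos (log2 change 0.24, limma adjusted p = 0.509). Of 10 tested genes flanking the clusters 6 were higher and 4 lower.

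Markers of body regions were compared between the groups in the same way, and none passed at an adjusted p under 0.05. Their counts stand beside the same 59.7% of all genes higher as deposited and 24.9% after rescaling without small RNA genes. Of 8 limb bud genes 8 were higher (median log2 change 0.13), and their summed level was 41.3 to 44.6 FPKM in xHet and 34.3 to 57.5 FPKM in xHomo embryos. Hand2, which sets the posterior side of the limb bud, was at 8.02 to 8.66 FPKM in xHet and 8.68 to 13.3 FPKM in xHomo embryos (log2 change 0.33, limma adjusted p = 0.481). Of 10 tested tail bud genes 6 were higher and 4 lower (median 0.01), with sums of 54.3 to 61.6 and 41.1 to 96.3 FPKM. Fgf17, a tail bud and midbrain signal, was at 4.32 to 5.02 FPKM in xHet and 4.56 to 9.41 FPKM in xHomo embryos (log2 change 0.58, limma adjusted p = 0.372). Genes of the head in front of the Hox domain stood higher as well, 10 of 13 (median 0.23), with sums of 63.7 to 68.8 and 60.1 to 87.6 FPKM. En2, of the midbrain and hindbrain border, was at 2.64 to 4.95 FPKM in xHet and 4.02 to 8.05 FPKM in xHomo embryos (limma adjusted p = 0.494). Of 6 tested hindbrain segment genes 4 were higher and 2 lower. All 14 tested replication histones, which mark no body region, were higher (median 0.54), with sums of 33.2 to 44.6 and 44.3 to 119 FPKM. How much of these mRNAs a polyadenylated library captures is not known here, and the part of library preparation was not tested. The 2 embryos with the highest posterior shares went opposite ways for tail bud genes. xHomo embryo 3 (27.8%), which also had the lowest summed FPKM of paralogs 9 to 13, had the lowest sums of limb bud and of tail bud genes. xHomo embryo 9 (27.3%) had the highest tail bud sum, 96.3 FPKM, and a limb bud sum of 46.3 FPKM. The part of these lists in the posterior share was not tested.

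Tissues that a dissection could carry along were also measured. Of 2 tested trophoblast and decidua genes, Hand1, which the heart and lateral mesoderm of the embryo also express, was at 8.83 to 9.21 FPKM in xHet and 10.1 to 14.7 FPKM in xHomo embryos (log2 change 0.43, limma adjusted p = 0.372), and Plac1 overlapped. Of the 8 below the filter, the trophoblast genes Tpbpa and Ctsq were listed at 0 in all 13 embryos, whereas Prl3d1, Prl2c2 and Ascl2 reached 2.67, 2.54 and 1.89 FPKM in xHomo and at most 0.24, 0.50 and 0.41 FPKM in xHet embryos. The sum of all 10 was 16.0 to 17.2 FPKM in xHet and 15.9 to 26.1 FPKM in xHomo embryos. Of 5 tested visceral endoderm genes 4 were higher and 1 lower, with sums of 42.9 to 59.1 and 17.3 to 93.9 FPKM. Of 8 blood genes 4 were higher and 4 lower, with sums of 10058 to 10194 FPKM in xHet and 5166 to 15280 FPKM in xHomo embryos. The part of these tissues in the Hox values was not tested.

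Noncoding genes of the clusters include microRNAs that target Hox mRNAs. The sequences of both families are shown with their seed, whose complement is searched for in Hox mRNAs below, in capitals (RefSeq, GRCm38.p6, 5′ to 3′).
miR-10a-5p (beside Hoxb4): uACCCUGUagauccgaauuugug
miR-10b-5p (beside Hoxd4): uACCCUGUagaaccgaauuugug
miR-196a-5p (beside Hoxb9 and Hoxc10): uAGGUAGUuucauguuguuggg
miR-196b-5p (beside Hoxa9): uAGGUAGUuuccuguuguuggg
The miR-10 pair differs by U12A, counted from the 5′ end of miR-10a-5p, outside the shared seed. Rows of microRNA genes in a polyadenylated library show precursor fragments and not the mature RNA, and a short gene gets a large FPKM from few fragments. Mir196a-1 was at 263, 111 and 218 FPKM in xHet and at 0 (lowest), 34.8 (median) and 163 FPKM (highest) in xHomo embryos, with overlap (log2 change -3.40, SE 1.58, limma adjusted p = 0.530). Mir10b and Mir196a-2 were listed at 0 in all 13 embryos. Of 6 tested noncoding genes of the clusters 2 were higher and 4 lower.

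The complement of the miR-196 seed, ACTACCT, occurs on the sense strand of the annotated 3′ UTR of 9 of 39 Hox genes (23.1%), beside 6.13% of 21002 genes. The miR-10 complement, ACAGGGT, occurs in 4 of 39 (10.3%), beside 12.5%. Sites of miR-196 were found, among others, in Hoxa5, Hoxa7, Hoxa9, Hoxb6, Hoxb7 and Hoxc8. Sites with 14 bases that pair with miR-196a-5p were found in Hoxa7, Hoxa9 and Hoxb7. Shown, with pairing bases in capitals, are those of Hoxb7, which had the smallest p on the lower side, and Hoxa9, the exception among the posterior genes.
Hoxb7 (bases 157 to 178 of the 3′ UTR): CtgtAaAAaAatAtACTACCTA
Hoxa9 (bases 326 to 347 of the 3′ UTR): CaaAAggAaAgaAAACTACCTt
Of the 9 Hox genes with a match 8 stood lower in xHomo embryos (median log2 change -0.17), and of the 26 without one 8 did (median 0.08); among all tested genes with a match 45.9% stood lower. Matches lie mostly in low paralog numbers: within paralogs 1 to 8, 7 of 8 with a match and 8 of 15 without one stood lower. Most genes with a match are also Hoxa genes, of which 7 of 10 tested stood lower. The division was made after the changes were known, and a match is a description of letters, not a working site. Only exact matches of the seed complement were counted, so a gene counted without one, such as Hoxb8, could still hold an inexact site.

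Promoters were examined for CpG, the dinucleotide whose methylation Tet proteins oxidize. RefSeq windows of 300 bases around a start site (GRCm38.p6) covered 22 of the 39 Hox genes with 24 windows. The median number of CpG was 14.5 per window, beside 7 over all 32851 windows, and the ratio of observed to expected CpG had a median of 0.626, beside 0.384. For paralogs 1 to 8 the median was 13 CpG (13 windows) and for paralogs 9 to 13 it was 20 CpG (11 windows). The caudal motif TTTATG occurred on either strand in 5 of 24 Hox windows (20.8%, beside 11.9% of all), the retinoic acid receptor hexamer AGGTCA in 7 (29.2%, beside 16.3%) and the composite motif of Hox proteins and their partners, TGATTNAT, in 2 (8.33%, beside 3.22%). A pair from the Hoxd cluster that stood on opposite sides of 0, Hoxd3 (-0.41) and Hoxd9 (0.28), is shown. It was chosen on the change itself: among Hoxd genes with a single window, these had the smallest limma p in each direction. Their windows hold the same number of CpG, 20. The 250 bases before each start are given on the plus strand, with CG in capitals.
Hoxd3, chr2:74711743-74711992: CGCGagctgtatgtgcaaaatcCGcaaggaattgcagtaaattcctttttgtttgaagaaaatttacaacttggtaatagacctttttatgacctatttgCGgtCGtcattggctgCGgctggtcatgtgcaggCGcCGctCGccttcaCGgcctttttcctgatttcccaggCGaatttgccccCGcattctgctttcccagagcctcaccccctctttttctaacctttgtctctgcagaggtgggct
Hoxd9, chr2:74697513-74697762: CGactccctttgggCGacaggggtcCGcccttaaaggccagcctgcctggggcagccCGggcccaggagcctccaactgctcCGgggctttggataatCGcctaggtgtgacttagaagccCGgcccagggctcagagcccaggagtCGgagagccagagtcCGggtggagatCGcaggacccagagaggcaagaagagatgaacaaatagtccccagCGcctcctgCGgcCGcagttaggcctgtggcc
The printed stretch of Hoxd3 holds 1 TTTATG and, overlapping it on the other strand, 1 AGGTCA, and that of Hoxd9 holds neither. Methylation was not measured in these samples.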

How the data were processed

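The authors deposited 1 table of FPKM per gene and sample for 13 embryos, with loci on mm9. The tools named in the submitters' processing notes are bcl2fastq 1.8.2, TopHat and Cufflinks; annotation and strand setting are not stated in them. These values carry no counts, so the depth is unknown, and abundant RNAs lower the values of the rest. Groups came from the genotype label. The 12755 genes with a mean of at least 1 FPKM were tested on log2(FPKM+1), which understates changes of low genes, with R 4.3.3 and limma 3.58.1 (lmFit, trended eBayes, two-sided, 3 against 10 embryos, no covariate, Benjamini-Hochberg at 0.05). The same step was tested on simulated data. Members, lists and paralog blocks were chosen with earlier results of these data known. Genes named were, per cluster, those with the 2 smallest p, the highest mean, the largest SD among xHomo embryos, the end paralogs and those below the filter, and for other lists up to 4 with the smallest p; further genes were named after their values were seen. Loci are given from 1. Sequences came from RefSeq tables (GRCm38.p6) and 3′ UTRs, the longest per gene, from GENCODE M21; exact matches were counted. Alternatives covered pseudocount, filter, scaling, an Xist covariate, weights, an exact permutation test, a replicate block and embryos left out. The protein comparison that was planned was not run, and results of 2 genes are not reported here; counts and sums include them. Python 3.11.15, numpy 2.4.6, pandas 2.3.3, scipy 1.17.1 and matplotlib 3.10.9 were used.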

Additional observations from a re-analysis of the deposited data

Results flagged for a closer look

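Among the 10 xHomo embryos, 10 of the 35 tested Hox genes had a lowest or highest value that stood far from the nearest other one, by Dixon's gap-to-range ratio. Chance flags about 1 in 20 genes, but 22.8% of all 12755 tested genes were flagged in this way, 19.2% by a low value in xHomo embryo 3 and 0.76% by a high value in xHomo embryo 9. The Hox genes share these libraries, and all 10 of their far values lay in those 2 embryos. In xHomo embryo 3 the low values were 13.7 FPKM for Hoxa5, 3.82 FPKM for Hoxa9, 10.4 FPKM for Hoxb3, 8.65 FPKM for Hoxb4, 5.11 FPKM for Hoxb7, 8.68 FPKM for Hoxc4 and 7.12 FPKM for Hoxd4. The next lowest embryo was at 18.0 FPKM for Hoxb3 and at 14.5 FPKM for Hoxd4. In xHomo embryo 9 the high values were 12.0 FPKM for Hoxa10, 9.89 FPKM for Hoxc9 and 3.39 FPKM for Hoxc11, with the next highest at 8.15, 6.68 and 2.16 FPKM. The 7 low genes have paralog numbers 3 to 9 and the 3 high genes numbers 9 to 11.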

How the results depend on the processing

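Over the settings tried, the results on lists and embryo sums gave 299 values close to those reported and 7 that were not. For a median, close meant within its SD among xHomo embryos, 0.15 to 0.23, so a change of sign could count as close. After rescaling to a common sum without small RNA genes, the median was -0.0030 in Hoxc, -0.025 in Hoxd, -0.20 in Hoxb and -0.26 in Hoxa. With the replicate block that of Hoxd was -0.031. With limma array weights, 7 Hox genes passed as higher (Hoxa10, Hoxa11, Hoxc6, Hoxc10, Hoxc11, Hoxd9 and Hoxd11) and 3 as lower (Hoxb3, Hoxb7 and Hoxd3). Under these weights 2779 of all 12755 genes passed in place of 3. In the other settings 0 Hox genes passed. The exact permutation test could hardly pass any gene. Its 286 splits allow no p under 0.0035, and its smallest adjusted p over all genes was 0.388. At an unadjusted p under 0.05 there were 4 Hox genes in limma and 3 in the exact permutation test. When libraries were rescaled to a common sum without small RNA genes, the median log2 change was -0.15 over all Hox genes and -0.24 over paralogs 4 to 8. With the replicate block (embryos 1 to 3 of each group) these medians were -0.18 and -0.23, and that of paralogs 9 to 13 was 0.024, with 6 of 12 higher, or 6 of 11 without Hoxd12. Same-numbered embryos deviated with correlations of -0.065, -0.040 and -0.038. With 3 such pairs this cannot show whether the numbers mark a litter or batch, which the labels do not state. Leaving out 1 embryo kept the median of paralogs 9 to 13 between 0.22 and 0.30, with 10 of the 11 other than Hoxd12 higher each time; leaving out Hoxd12 alone gave 0.28.

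Of 15 genes followed singly, 3 changed sign. Hoxb1 was at 0.079 with array weights and -0.10 to 0.021 with 1 embryo left out, positive only without xHomo embryo 3. Hoxd1 was at -0.059 after rescaling to a common sum, -0.15 without small RNA genes in it, -0.023 under median-of-ratios scaling, -0.0078 under quantile normalization, -0.23 with Xist as a covariate, -0.040 with the replicate block, -0.21 among embryos with Xist under 10 FPKM, and -0.036 to 0.051 with 1 embryo left out. Hoxd13 was at -0.025 without small RNA genes and -0.011 with the block. The cause was not tested. With xHomo embryos 3 and 9 both left out, or only embryos with Xist under 10 FPKM kept, both chosen after seeing the data, 0 Hox genes passed, the smallest adjusted p (Hoxb7) being 0.186 and 0.129. The depth behind FPKM is unknown, so the precision of Hoxc11, Hoxd12 and the 4 genes below the filter cannot be stated.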

Other observations

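In xHomo embryo 5 paralogs 1 to 3 had the smallest share of the summed Hox FPKM, 26.5%, while paralogs 9 to 13 held 25.8%; in xHomo embryo 2 the shares were 31.7% and 21.8%. xHomo embryo 4 held the highest value of Hoxa6, 7.40 FPKM, against 2.11 to 4.32 FPKM in the other 9 xHomo embryos and 3.74 to 4.25 FPKM in the xHet embryos; Hoxa6 shares its locus in the table with Hoxa3, Hoxa4 and Hoxa5, which were at 10.3, 4.85 and 24.4 FPKM in that embryo. Both Hoxa6 and these embryos were chosen after their values were seen.

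Hoxd12, which acts in the limb bud, was at 0.10 FPKM in xHomo embryo 2 and at 0.68 to 2.05 FPKM in the other xHomo embryos, against 1.10, 0.54 and 0.69 FPKM in the xHet embryos. In the same embryo Hoxa11 was at 1.75 FPKM, its lowest xHomo value, while Hoxc10 and Hoxa10 were at 10.1 and 8.15 FPKM, above every xHet embryo.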
